A study of Schizosaccharomyces pombe with 24 samples.

Results

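The vacuolar polyphosphate genes of fission yeast, Schizosaccharomyces pombe, were nrf1, vtc2 and vtc4, which encode subunits of the vacuolar transporter chaperone (VTC) complex, and pho8, which encodes a vacuolar membrane alkaline phosphatase. They were chosen by their gene names, and each matched 1 row, giving 4 genes of the 6987 rows in the tables. All 4 had averages above 100 in each group, so none was lost to the minimum used below. The tables' product descriptions place each of them at the vacuole, and vtc2, vtc4 and pho8 are annotated there as predicted.

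The study sequenced poly(A)+ RNA of 8 groups in triplicate, 24 libraries in all, and the labels call the triplicates separate replicate experiments. WT (wild type) was strain AGP72 (h-) and pho7Δ was strain AGP83 (h- pho7delta::natMX), each sampled at 0 h while growing logarithmically in YES, a complex medium based on yeast extract. The other 6 groups were AGP83 cells moved to ePMGT(-PO4), a defined medium without phosphate, for 4 or 8 h, for 12 or 24 h, and for 36 or 48 h. The strains of the laboratory share the markers leu1-32, ura4-D18 and his3-D1, and pho7Δ is represented by a single strain. All carry an ade6 allele, but not the same one, and the paper does not give it for AGP72 or AGP83. Pho7 is the zinc-finger transcription factor that activates phosphate acquisition genes, so the series asked which starvation responses remain without it. A starved WT group was not analysed here. The switch from YES to ePMGT came together with the loss of phosphate, so starvation and medium cannot be told apart in the course. The paper describes a separate control of WT cells moved to ePMGT with phosphate, whose values were not analysed here. It reports no increase there of the autophagy and phosphate-mobilizing genes induced by starvation, with some exceptions.

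Each table holds 1 normalized read count per group, the authors' mean over the 3 libraries. No value per library was analysed here. Hence the values below are the authors' means with no SD and no test, and a difference between 2 groups carries no error of its own. How much neighbouring averages differed depended on the step. The log2 ratio of 48 h over 36 h, the narrowest step, lay between -0.19 and 0.20 for the middle 90% of 5622 measured genes (5th to 95th percentile). The same range was -0.56 to 0.80 from 4 to 8 h, -0.40 to 0.58 from 8 to 12 h and -0.48 to 0.63 from 12 to 24 h. Log2 ratios are of (average + 1), and a gene counts as measured where the higher of the 2 averages was 100 or more.

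Several facts of the whole series bear on the strain comparison. The deleted gene, pho7, averaged 3147 in WT, 833 in pho7Δ at 0 h, and between 334 and 598 during starvation, so reads remained at this locus in the mutant although it was the lower group throughout. An h- culture consists of M cells, but the P cell markers were not at 0. map2, the P-factor precursor, averaged 2079 in WT and 134 to 275 in the pho7Δ groups, and sxa1 averaged 28863.5 and 4450.4 to 13590.0, whereas map3, the M-factor receptor, was lower in WT (185) than in pho7Δ (313 to 466). The 3 summed to 31127 in WT and 5133 to 14179 in pho7Δ, most of it from sxa1. The 5 M cell markers mfm1, mfm2, mfm3, mam1 and mam2 summed to 5049 in WT and 3028 to 10031 in pho7Δ, with mfm1 lower in WT (11.7) than in pho7Δ (90.6 to 1102) and mam2 higher in WT (3170.4) than in pho7Δ (192 to 1149). In bulk cultures fewer cells of a kind and less RNA per cell cannot be told apart. The part of these strain differences in the 0 h values below was not tested.

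Polyphosphate is a linear chain of phosphate units held by high-energy bonds, and in yeasts most of it lies in the vacuole, where it serves as the phosphate store. The VTC complex sits in the vacuolar membrane, builds the chain from ATP and passes it into the lumen as it grows. Its catalytic domain is in Vtc4 in budding yeast. There Vtc4 and the Vtc2/3 type of subunit carry SPX domains, which bind inositol pyrophosphates, and Nrf1 is the small membrane-embedded subunit that corresponds to budding yeast Vtc1. Polyphosphatases return phosphate from the chain. Pho8, known in budding yeast as the vacuolar repressible alkaline phosphatase, releases phosphate from organic esters inside the vacuole. Pho1, Pho84 and Tgp1, the cell surface acid phosphatase and the transporters of phosphate and glycerophosphocholine, act at the other end of the pathway and are given for comparison.

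The genes lie apart from each other. In the RefSeq annotation of ASM294v3, vtc2 (SPAC14C4.11) is on chromosome I with 2 exons, nrf1 (SPBC21B10.04c, 1 exon) and pho8 (SPBC14F5.13c, 2 exons) are on chromosome II, and vtc4 (SPCC1322.14c, 1 exon) is on chromosome III, where the next protein-coding gene beyond its 3′ end is ade6. The transcript models contain 2712 exon bases for vtc2, 2656 for vtc4, 1934 for pho8 and 627 for nrf1, and the coding sequences specify 734, 721, 532 and 122 residues. The files give no coordinates, and the authors had counted on ASM294v2, so lengths and positions here are those of ASM294v3.

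The start regions of the genes are shown because Pho7 recognizes TCGG or TCGC as the core of its 12-base element, and the values below come from cells without Pho7. Each run holds 250 bases before and 50 bases from the annotated transcript start, 5′ to 3′ on the gene's strand, from RefSeq ASM294v3. Capitals mark TCGG or TCGC and their reverse complements CCGA and GCGA, and adjoining or overlapping matches run together. The regions are chrII:1664245-1664544 (plus strand) for nrf1, chrI:5247470-5247769 (plus strand) for vtc2, chrIII:1320981-1321280 (minus strand) for vtc4 and chrII:4184569-4184868 (minus strand) for pho8.
nrf1: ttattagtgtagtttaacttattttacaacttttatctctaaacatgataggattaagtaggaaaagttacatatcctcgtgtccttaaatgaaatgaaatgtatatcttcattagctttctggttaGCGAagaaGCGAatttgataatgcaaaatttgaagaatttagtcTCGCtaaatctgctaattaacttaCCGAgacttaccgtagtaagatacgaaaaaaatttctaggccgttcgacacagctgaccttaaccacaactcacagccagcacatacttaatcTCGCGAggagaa
vtc2: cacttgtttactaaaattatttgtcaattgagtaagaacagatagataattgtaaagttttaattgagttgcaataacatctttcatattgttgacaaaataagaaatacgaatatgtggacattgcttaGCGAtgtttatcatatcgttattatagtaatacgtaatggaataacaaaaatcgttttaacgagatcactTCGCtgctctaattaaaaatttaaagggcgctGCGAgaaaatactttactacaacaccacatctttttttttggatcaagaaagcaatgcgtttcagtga
vtc4: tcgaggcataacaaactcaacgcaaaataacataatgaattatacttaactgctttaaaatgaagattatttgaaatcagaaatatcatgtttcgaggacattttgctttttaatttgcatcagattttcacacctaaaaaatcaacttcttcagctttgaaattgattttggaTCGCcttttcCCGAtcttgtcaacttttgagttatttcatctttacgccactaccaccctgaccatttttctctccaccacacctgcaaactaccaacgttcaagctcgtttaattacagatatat
pho8: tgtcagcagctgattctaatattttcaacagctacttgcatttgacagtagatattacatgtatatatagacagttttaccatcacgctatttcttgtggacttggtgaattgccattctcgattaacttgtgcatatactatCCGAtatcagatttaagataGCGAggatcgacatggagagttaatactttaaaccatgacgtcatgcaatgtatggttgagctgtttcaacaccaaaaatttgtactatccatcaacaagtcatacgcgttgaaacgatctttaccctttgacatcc

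The windows held 6 core matches for nrf1, 3 for vtc2, 2 for vtc4 and 2 for pho8. nrf1 had 1 TCGG and 5 TCGC, of which a pair overlap on opposite strands just after the start. vtc2 had TCGC only, with left ends at -120, -50 and -18 from the start. vtc4 and pho8 each had 1 of either core, at -76 and -66 in vtc4 and at -107 and -87 in pho8. The pho8 window reaches into SPBC3F6.01c, the neighbouring gene upstream on the same strand, which overlaps pho8 by 20 bases. Such 4-letter matches are common: 80.1% of 5144 promoters of the same length held TCGG or TCGC on either strand, with a median of 2 matches. The full 12-base Pho7 element was not among the letters of these 4 windows, and 2.02% of all promoters held it. In windows of 500 bases before the start it was again not present for the 4 genes. There 2 matches lay before pho1, 1 before tgp1 and 0 before pho84, and 3.05% of all genes had at least 1 match. The paper does report Pho7 binding sites before pho84, with 1 mapped farther upstream than this window. It also named candidate sites by the core letters. A count of 0 full elements here therefore does not tell whether Pho7 binds near a gene. TATAAA, present in 48.1% of all promoters, was in none of the 4 windows. A match is a description of the letters and not a binding site.

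**Figure D1:**
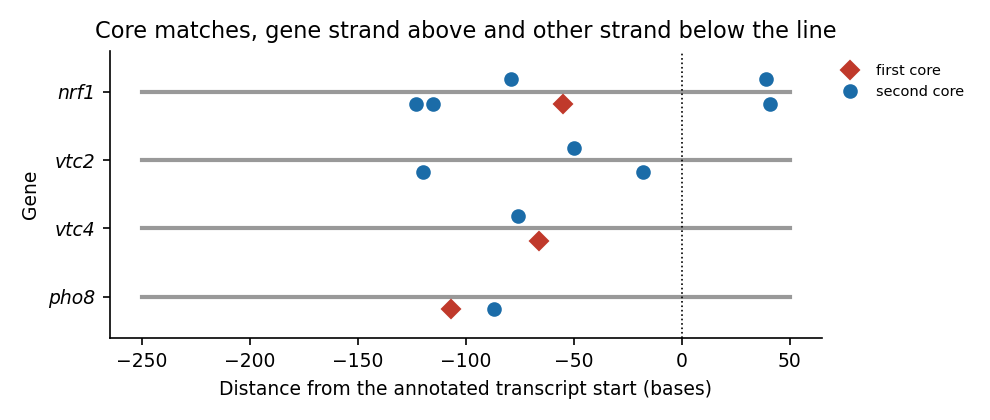
Positions of the Pho7 core letters in the start regions of the 4 genes, in bases from the annotated transcript start. Diamonds are TCGG (first core) and circles TCGC (second core), drawn above the line on the gene's strand and below it on the other strand. nrf1 has 6 matches and vtc4 and pho8 have 2 each.

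In pho7Δ cells growing in YES, nrf1 and pho8 had higher averages than in WT, whereas vtc4 and vtc2 had nearly the WT level. For nrf1 the WT average was 1630.3 and the pho7Δ average 3501, a 2.15-fold difference and a log2 ratio of 1.10. pho8 stood at 1353 in WT and 2324 in pho7Δ (1.72-fold). For vtc4 the averages were 2151 and 2512 (1.17-fold), and for vtc2 they were 5059 and 5581 (1.10-fold). Thus 1 of the 4 genes was at least 2-fold higher without Pho7 and 0 were 2-fold lower, against 8.5% of 5599 measured genes higher and 12.1% lower. nrf1 ranked 409th from the top of the measured genes. Its log2 ratio is 1.04 above the median of all measured genes, but it came to 0.96, short of 2-fold, after scaling the groups to equal totals. The cell surface genes stood the other way in this comparison, with pho1 at 1701 in WT and 487 in pho7Δ, pho84 at 3790.1 and 1313, and tgp1 at 992 and 366.

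All 4 genes had higher averages in every phosphate-starved pho7Δ group than in pho7Δ at 0 h. nrf1 averaged 9231 at 4 h, 11368 at 8 h, 9487 at 12 h, 8213 at 24 h, 8579 at 36 h and 8485 at 48 h. vtc2 averaged 11989, 14096, 11893, 10160.5, 10713 and 10961 at the same times. The 2 genes share a shape, with the highest average at 8 h and a lower plateau from 24 h.

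The vtc4 averages were 6841 at 4 h, 10642 at 8 h, 11024 at 12 h, 9324 at 24 h, 9608 at 36 h and 9337 at 48 h. pho8 averaged 5409.9, 7899, 7751, 6472, 6609.8 and 6261 at these times. Both had the lowest of their 6 starved averages at 4 h, while nrf1 and vtc2 had theirs at 24 h. The lowest starved average of each of the 4 genes was above its 0 h averages in pho7Δ and in WT. Added together, the 4 averages went from 13918 at 0 h to 44005 at 8 h (3.16-fold) and 35044 at 48 h, or from 0.0760% to 0.244% and 0.209% of the summed averages of all rows.

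**Figure D2:**
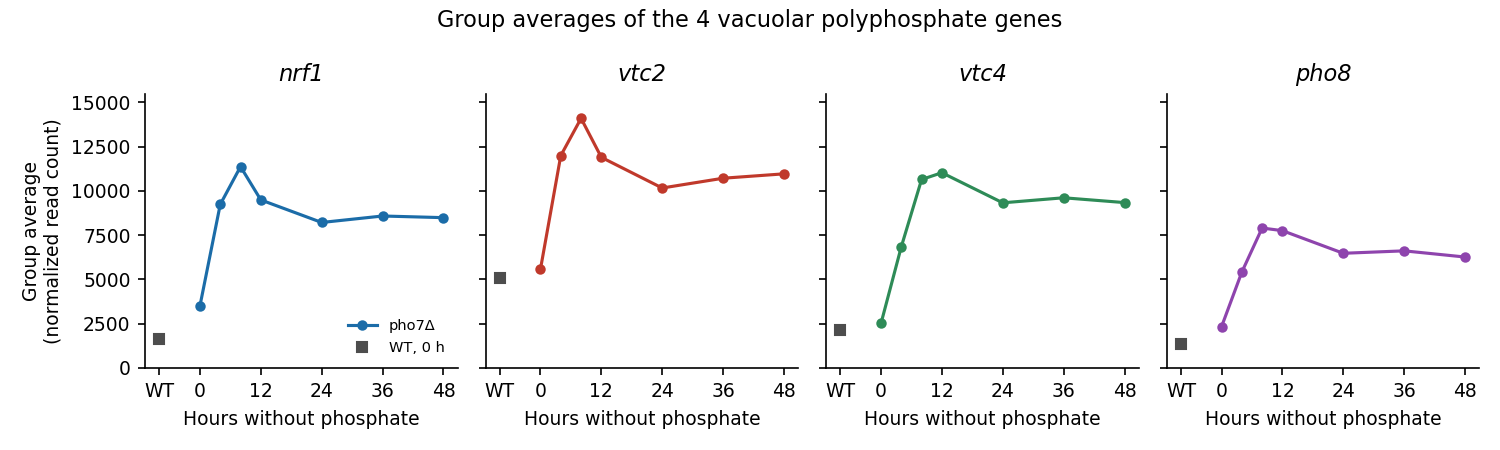
Group averages (normalized read count, linear axis from 0) of nrf1, vtc2, vtc4 and pho8 in WT at 0 h (square) and in pho7Δ from 0 to 48 h without phosphate (circles). Each point is the authors' mean of 3 libraries, with no error bar since no value per library was used. nrf1, vtc2 and pho8 are highest at 8 h and vtc4 at 12 h.

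Relative to pho7Δ at 0 h, vtc4 had the largest ratio of the 4 genes at each starved time and vtc2 the smallest. The ratio of vtc4 was 2.72-fold by 4 h, 4.23-fold by 8 h, 4.39-fold by 12 h and 3.72-fold by 48 h. For pho8 it was 2.33-fold at 4 h, 3.40-fold at 8 h and 2.69-fold at 48 h, and for nrf1 it was 2.64-fold, 3.25-fold and 2.42-fold. vtc2 was 2.15-fold higher at 4 h, 2.53-fold at 8 h and 2.13-fold at 12 h, and it stood below the 2-fold line later, at 1.82-fold at 24 h, 1.92-fold at 36 h and 1.96-fold at 48 h. This late position of vtc2 depended on the scaling: its log2 ratio of 0.94 at 36 h and 0.97 at 48 h became 1.03 and 1.10 with equal totals and 1.02 and 1.06 with a median-ratio scaling. The 6 comparisons share the pho7Δ libraries of 0 h, so they are not independent of each other.

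The number of the 4 genes at least 2-fold higher than in pho7Δ at 0 h was 4 at 4 h, where 6.0% of measured genes were. It was 4 at 8 h (12.6% of measured genes) and 4 at 12 h (14.7%). It was 3 at 24 h (17.7%), 3 at 36 h (18.0%) and 3 at 48 h (18.0%), with vtc2 the gene left out. At all 6 times together, nrf1, vtc4 and pho8 passed, and so did 221 of the 5493 genes measured at each of the 6 times (4.02%). While the averages of the 4 genes came down a little after 8 or 12 h, the background widened, so that the share of measured genes with a larger ratio than vtc4 was 3.21% at 4 h, 3.32% at 8 h and 7.37% at 48 h. For vtc2 that share was 5.05% at 4 h, 8.13% at 8 h and 18.5% at 48 h.

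**Figure D3:**
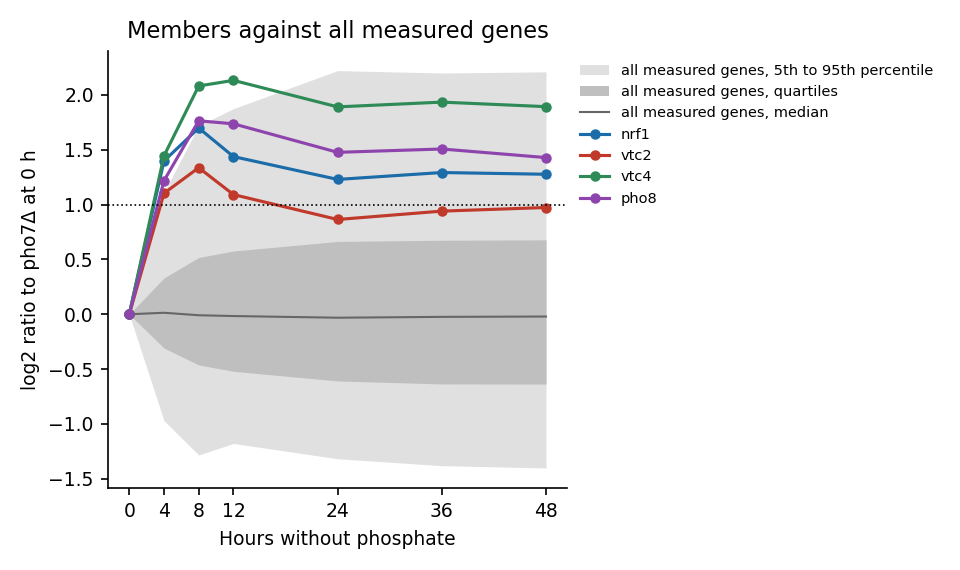
Log2 ratio to pho7Δ at 0 h (y axis) by hours without phosphate (x axis) for the 4 genes, over the median (grey line), quartiles (dark band) and 5th to 95th percentiles (light band) of all measured genes. The dotted line is 2-fold. At 8 h vtc4 (2.08) and pho8 (1.76) lie above the 95th percentile of 1.72, and at 48 h the 4 genes, from 0.97 to 1.89, lie under that percentile of 2.21.

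Set against WT at 0 h, the same starved averages gave another order, nrf1 and pho8 having lower averages in WT than in pho7Δ at 0 h. At 8 h the ratio to WT was 6.97-fold for nrf1, 5.83-fold for pho8, 4.95-fold for vtc4 and 2.79-fold for vtc2. At 48 h it was 5.20-fold for nrf1, 4.62-fold for pho8, 4.34-fold for vtc4 and 2.17-fold for vtc2. So nrf1 led against WT and vtc4 led against pho7Δ at 0 h, and vtc2 was last in both.

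All 4 genes were at least 2-fold above WT at each starved time. The share of measured genes at least 2-fold above WT was 15.2% at 4 h, 18.0% at 8 h, 19.6% at 12 h, 21.3% at 24 h, 21.1% at 36 h and 20.9% at 48 h. Of 5630 genes measured at each time, 11.0% were so at all 6 times. vtc2 was nearest to the line, with a log2 ratio of 1.01 at 24 h, which came to 0.98 under equal totals. These comparisons share the WT libraries, and strain, medium and phosphate all differ between their sides.

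The genes differed in how soon the higher level was reached. Of the difference between 0 h and the highest starved average, vtc2 showed 75.3% and nrf1 72.8% at 4 h, pho8 55.3% and vtc4 50.9%. Among the 704 genes at least 2-fold higher at 8 h, the median of this share was 31.7% (quartiles 14.7% and 53.6%). Of those genes 11.8% had a larger share than vtc2 and 27.4% a larger share than vtc4. That set was chosen by the 8 h value and includes the 4 genes, which favours genes already high by 8 h. From 4 to 8 h the step was 1.56-fold for vtc4 and 1.46-fold for pho8, beside 1.23-fold for nrf1 and 1.18-fold for vtc2. From 8 to 12 h nrf1 (0.835-fold) and vtc2 (0.844-fold) were lower, whereas vtc4 (1.04-fold) and pho8 (0.981-fold) stayed near their 8 h level.

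The late course was flat for all 4 genes. At 48 h vtc4 was at 84.7% of its highest average, pho8 at 79.3%, vtc2 at 77.8% and nrf1 at 74.6%. The median over the 704 genes was 91.0% (lower quartile 69.4%). In that set the highest average fell at 48 h for 220 genes (31.2%), at 8 h for 179 (25.4%) and at 12 h for 77 (10.9%). Maxima at 8 or 12 h were thus shared by many genes of the set. As the set was chosen by its 8 h value, these shares do not describe all genes. Between 24 and 36 h and between 36 and 48 h the log2 steps of the 4 genes lay between -0.08 and 0.08, inside the 5th to 95th percentiles of all measured genes at those steps.

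Within a group the ratio of 2 genes does not depend on the scaling, and per kilobase of exon it compares their levels. nrf1 was the most abundant of the 4 on this scale in each group, at 2600.2 per kb in WT, 5584 in pho7Δ at 0 h and 18131 at 8 h. vtc2 stood at 1865 per kb in WT, 2058 at 0 h and 5198 at 8 h. vtc4 had 810 per kb in WT, 946 at 0 h and 4007 at 8 h, and pho8 had 699.8 in WT, 1202 at 0 h and 4084 at 8 h. Of the nrf1 exon bases 46.6% lie opposite a long noncoding RNA, and 4 such RNAs lie opposite 3.88% to 14.5% each of the pho8 exon bases, so the values of both per kb are uncertain.

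vtc2 and vtc4 drew closer together during starvation, while nrf1 and vtc2 moved apart. The ratio of vtc2 to vtc4 per kb was 2.30 in WT, 2.18 in unstarved pho7Δ, then 1.72 at 4 h, 1.30 at 8 h, 1.06 at 12 h and 1.15 at 48 h. The ratio of nrf1 to vtc4 was 3.21 in WT, 5.90 in unstarved pho7Δ, and then 4.53 by 8 h, 3.65 by 12 h and 3.85 by 48 h. nrf1 over vtc2 was 1.39 in WT, 2.71 in unstarved pho7Δ, and then 3.49 by 8 h and 3.35 by 48 h. pho8 kept nearest to vtc4, with a ratio of 0.864 in WT, 1.27 in unstarved pho7Δ, 1.02 at 8 h and 0.921 at 48 h. At 12, 24, 36 and 48 h the order per kb was vtc2, vtc4, pho8, with averages at 48 h of 4042, 3515 and 3237, and no error of these differences can be given.

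**Figure D4:**
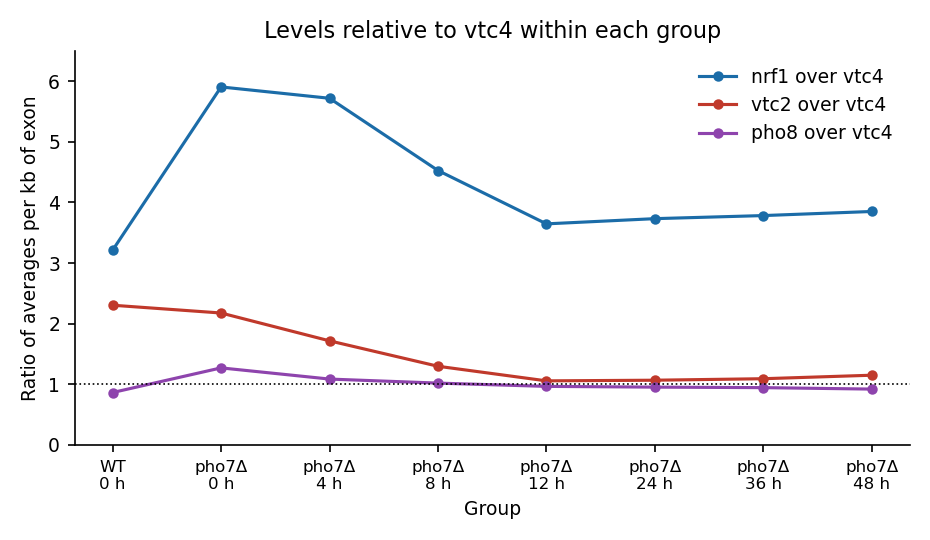
Ratio of the average per kilobase of exon of nrf1, vtc2 and pho8 to that of vtc4 (y axis, linear from 0) in each of the 8 groups (x axis). The dotted line is equality. vtc2 over vtc4 goes from 2.18 in pho7Δ at 0 h to 1.06 at 12 h, and nrf1 over vtc4 from 5.90 to 3.65.

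Some annotated neighbours overlap the genes, and whether reads were counted by strand is not stated in the sources used here. The last 119 bases of vtc2 overlap laf1 on the opposite strand, and 20 bases of pho8 overlap SPBC3F6.01c on the same strand. These 2 neighbours had their lower averages where vtc2 and pho8 had their higher ones: laf1 went from 1229 in pho7Δ at 0 h to 658 at 8 h and 619 at 48 h, and SPBC3F6.01c from 1943 to 1066 and 576. None of the long noncoding RNAs opposite nrf1 and pho8 has a row in the tables. Their part in the counts of nrf1 and pho8 was not tested.

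The genes listed for polyphosphate turnover had mixed functions and differed among themselves. SPBC713.07c, a predicted vacuolar polyphosphatase, averaged 1388 in WT, 1549.6 in pho7Δ at 0 h and 3453 at 8 h, a log2 ratio of 1.16 over 0 h, and 2592 at 48 h. Like vtc2, it had its highest average at 8 h and its lowest starved average after that at 24 h (2043). SPAC3A12.02, a predicted mitochondrial inorganic diphosphatase, averaged 417 at 0 h, 766 at 8 h, 1039.9 at 24 h and 871 at 48 h, a log2 ratio of 1.06 at 48 h. ppx1, a predicted exopolyphosphatase that removes terminal phosphates, stood the other way, with 2909 at 0 h, 1757 at 8 h (log2 ratio -0.73) and 1684 at 48 h (-0.79).

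aps1, a hydrolase of diadenosine polyphosphates, averaged 1912 at 0 h and 2499 at 8 h (0.39), and pqr1, a ubiquitin ligase with an SPX domain, averaged 5295 and 5703 (0.11). Of these 5 turnover genes, 1 was at least 2-fold higher at 8 h and 0 were 2-fold lower, beside backgrounds of 12.6% and 8.52%. At 48 h 1 was 2-fold higher and 0 lower, beside 18.0% and 12.7%. Their median log2 ratio at 8 h was 0.39, that of the 4 vacuolar polyphosphate genes was 1.73, and that of all measured genes was -0.01. SPCC1840.07c, a predicted vacuolar endopolyphosphatase that cuts within the chain, averaged 1289 at 0 h, 1763 at 8 h and 1044 at 48 h. It was counted with the vacuolar hydrolases below and not among the 5 turnover genes. SPCC1827.07c, an SPX/EXS domain protein, was described in place of xpr1, a foreseen turnover gene that matched no row by name. It was picked after its values were seen and is not among the 5 genes counted above. Its averages were 695 at 0 h, 2218 at 4 h, 2433 at 8 h (3.50-fold) and 2889 at 48 h (4.16-fold).

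The V-ATPase pumps protons into the vacuole, and in budding yeast the VTC complex needs that proton gradient to make polyphosphate. All 14 of its listed genes were measured, and 0 were 2-fold higher and 0 lower at 8 h or at 48 h, except that 1 was 2-fold higher at 48 h under either other scaling. The shares of all measured genes were 12.6% higher and 8.52% lower at 8 h, and 18.0% and 12.7% at 48 h. At 8 h 13 had a higher average than at 0 h. Their median log2 ratio was 0.43 at 8 h and 0.07 at 48 h. The genes with the largest ratios at 8 h were vma10 (subunit G, 1935 and 3231, log2 ratio 0.74), vma4 (subunit E, 0.66) and vma7 (subunit F, 0.65). Those with the smallest were vma16 (subunit c″, -0.04), vma9 (subunit e, 0.19) and vma13 (subunit H, 0.30). The smallest log2 ratio of the 4 vacuolar polyphosphate genes at 8 h, 1.34 for vtc2, was thus above the largest of the V-ATPase. This did not last. The largest V-ATPase ratio was 1.12 at 24 h and 1.03 at 36 h, above vtc2 at 0.86 and 0.94. At 48 h it was 0.94, beside 0.97 for vtc2. At 24 h and at 36 h 1 V-ATPase gene was 2-fold higher, beside 17.7% and 18.0% of all measured genes.

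Other vacuolar genes split more widely. Of 9 vacuolar hydrolases, 2 were at least 2-fold higher at 8 h and 0 lower, beside 12.6% and 8.52% of all measured genes, with a median log2 ratio of 0.19. cps1, a carboxypeptidase, had a log2 ratio of 1.78 (5823 and 20035). isp6, a serine protease, had 1.39 (7815 and 20477), and psp3, also a serine protease, had 0.58. dpp1 (a dipeptidyl peptidase, -0.09), cpy1 (carboxypeptidase Y, -0.08) and lap2 (an aminopeptidase, 0.04) were the smallest. Thus cps1 and pho8 (1.76) had nearly equal ratios, while the median hydrolase was close to no difference.

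Of 15 vacuolar transport genes, 2 were 2-fold higher at 8 h and 0 lower, near the 12.6% of all measured genes that were higher, with a median log2 ratio of 0.14. The largest were the zinc exporter gene zip2 (1.24), the amino acid transporter gene fnx1 (1.20) and atg22 (0.99), and the smallest were abc2 (-0.73), which moves glutathione and phytochelatin conjugates, the calcium pump gene pmc1 (-0.70) and the magnesium transporter gene mnr2 (-0.36). At 48 h 2 were 2-fold higher and 2, pmc1 (-1.22) and abc2 (-1.12), were 2-fold lower, beside 18.0% and 12.7% of all measured genes. Of the 15 remaining vacuolar genes 2 were 2-fold higher at 8 h, again near the background of 12.6%, pib1 (1.19) and pfa5 (1.09), followed by vps55 (0.93), and the smallest were snx12 (-0.39), vps33 (-0.07) and tre1 (0.00). pib1 encodes a ubiquitin ligase, pfa5 a palmitoyltransferase, and vps55 and vps33 sorting proteins. No gene of these vacuolar lists had a larger ratio at 8 h than vtc4, and cps1 alone exceeded pho8 and nrf1. At 48 h vtc4 (1.89) was still above them. By then pfa5 (1.76), zip2 (1.65), pib1 (1.64) and the hydrolase gene SPAC23C11.06c (1.47) exceeded pho8 (1.43) and nrf1 (1.28). Of the 9 hydrolases 2 were 2-fold higher and 0 lower at 48 h. Of the 15 remaining genes 4 were higher and 1 lower, beside the same 18.0% and 12.7%.

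**Figure D5:**
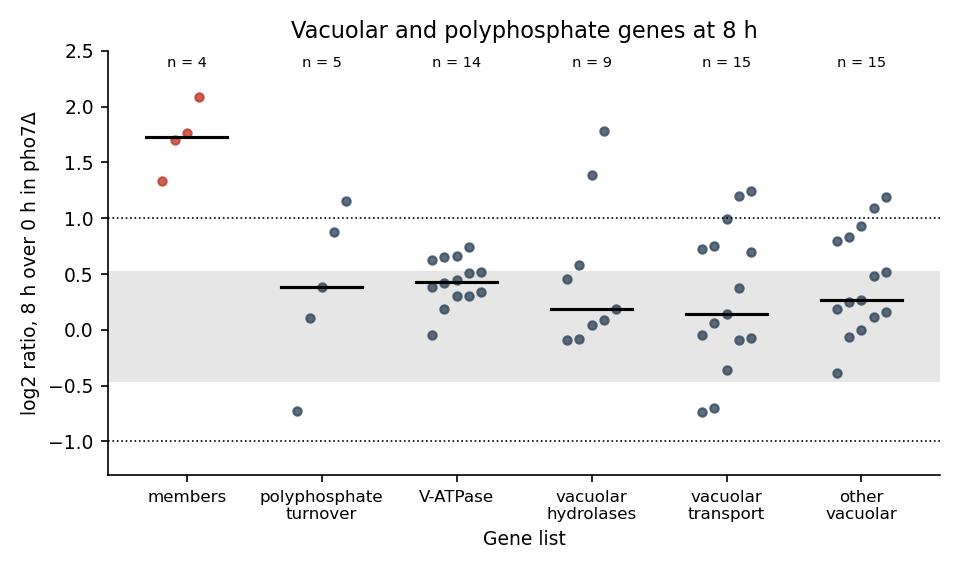
Log2 ratio of 8 h over 0 h in pho7Δ (y axis) for each gene of the lists (x axis), 1 point per gene with a bar at the list median. The grey band spans the quartiles of all measured genes and dotted lines mark 2-fold. The 4 vacuolar polyphosphate genes (red) run from 1.34 to 2.08, and the 14 V-ATPase genes from -0.04 to 0.74.

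The cell surface genes had much larger ratios from lower 0 h averages in the same cells. At 8 h pho1 averaged 26149, pho84 49277 and tgp1 11861, which were 53.6-fold, 37.5-fold and 32.4-fold over pho7Δ at 0 h. At 48 h pho1 (39014) and pho84 (69715) were higher still, whereas tgp1 (9931) and the 4 vacuolar polyphosphate genes were below their highest averages. Against WT at 0 h the 8 h ratios of pho1 (15.4-fold), pho84 (13.0-fold) and tgp1 (11.9-fold) were closer to that of nrf1 (6.97-fold).

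The averages of the 4 genes across the 8 groups were more alike in some pairs than in others. The root mean square difference of their log2 ratios to pho7Δ at 0 h, taken over the other 7 groups, was smallest for nrf1 and pho8 (0.23) and for vtc4 and pho8 (0.41), and largest for vtc2 and vtc4 (0.82). Among 5860 other genes, pho8 was the 6th nearest to nrf1 and nrf1 the 11th nearest to pho8, while vtc4 was the 1477th nearest to vtc2. Pearson's r of log2 averages over the 8 groups, which ignores the size of the ratios, was between 0.94 and 0.98 for all 6 pairs. More than 100 genes had an r above 0.95 with each of the 4, from 104 for vtc2 to 310 for pho8, so a high r was common in this course.

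The genes nearest to nrf1 were cxr1 (0.08), a splicing factor gene, sst1 (0.15), a predicted calcium permease gene, and bcp1 (0.20), which encodes a thioredoxin peroxidase. Nearest to vtc2 were cda1 (0.07), a chitin deacetylase gene, atm1 (0.11), an exporter of mitochondrial iron-sulfur assembly, and asp1 (0.14), which encodes an inositol pyrophosphate synthase. asp1 averaged 1918 in pho7Δ at 0 h and 4849 at 8 h, a log2 ratio of 1.34, the same as vtc2. Nearest to vtc4 were akr7 (0.18), a pyridoxal reductase gene, the noncoding aah2-antisense-1 (0.19) and dao1 (0.21), a D-amino acid oxidase gene. Nearest to pho8 were spd1 (0.11), which encodes an inhibitor of ribonucleotide reductase, sst1 (0.14) and mmf1 (0.17). The values in brackets are root mean square differences on the log2 scale. sst1 is named for nrf1 and for pho8. Ranking by Pearson's r kept 2 of the 3 genes for nrf1, 1 for vtc2 and 0 for vtc4 and for pho8, so these names depend on the measure.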

How the data were processed

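Poly(A)+ RNA libraries were made with a stranded kit and sequenced in pairs. The submitters' notes name HISAT2 2.1.0, the ASM294v2 build, SAMtools, HTSeq 0.10.0 and DESeq2. Each of the 7 deposited tables holds 1 signal per group, in which the authors averaged normalized read counts over 3 libraries.  The WT averages were identical in the 7 tables, so 1 scale was used. The tables also hold the authors' own log2 fold changes, standard errors, Wald statistics, p-values and adjusted p-values, which were not used. No value per library and no depth per library were analysed here, so the tests and replicate checks foreseen for counts were not run and no error is given.

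Groups came from the labels. Log2 ratios used a pseudocount of 1. A gene was past 2-fold with a ratio of at least 2 and an average of 100 or more in the higher group. The members and lists were chosen with earlier results of these data known. Lists were taken from the tables' product descriptions. ppa1, foreseen as a turnover gene, is described there as a protein phosphatase and was left out. xpr1, also foreseen, matched no row by name, and SPCC1827.07c was described in its place. pqr1 was found by its RefSeq symbol. Named genes were the 4 members, pho7, pho1, pho84, tgp1, the turnover genes, the 3 largest and 3 smallest ratios at 8 h of each vacuolar list, and the 3 nearest genes of each member, with exceptions stated. In the rows, 6834 of 6987 IDs matched RefSeq locus tags. Calculations used Python 3.11.15, pandas 2.3.3 and numpy 2.4.6. The calling rule was run on WT averages multiplied by known folds without noise, which checks the code only. Alternatives were 2 other scalings, pseudocounts of 0 and 10, fold limits of 1.5 and 4, other minimum averages, protein-coding rows only and another measure of likeness.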

Additional observations from a re-analysis of the deposited data

How the results depend on the processing

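No paired analysis was possible because only group averages were used, and for the same reason no replicate could be left out and no other count model or filter on read counts could be run. None of the 52 log2 ratios of the 4 genes (to pho7Δ at 0 h, to WT, and of pho7Δ over WT at 0 h) changed sign under equal totals, median-ratio scaling or pseudocounts of 0 and 10. With equal totals 48 stayed on their side of 2-fold and with median-ratio scaling 50 did, and the pseudocounts moved none across it. Equal totals shifted the median of all measured genes by -0.14 (log2) at 0 h against WT, by -0.17 at 4 h against WT and by 0.12 at 48 h against pho7Δ at 0 h. The number of the 4 genes past the limit in pho7Δ over WT at 0 h was 0 with equal totals, 2 at a limit of 1.5-fold and 0 at 4-fold, in place of 1. At 4-fold it was 1 at 8 h and 1 at 12 h, and 0 at 4, 24, 36 and 48 h, against pho7Δ at 0 h, and 1 at 4 h against WT. The share of all genes higher was 14.1% to 30.7% over the 13 comparisons at 1.5-fold and 1.36% to 9.14% at 4-fold, beside 6.0% to 21.3% at 2-fold. At 4 h against WT, 861 genes were 2-fold higher and 856 lower, and 688 and 1082 with equal totals. No limit set by counting error could be given without counts.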
